A study of Mus musculus with 55 samples.

Results

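Csf1 (colony stimulating factor 1) and Il34 (interleukin 34) encode the ligands, and Csf1r the receptor, of the growth-factor axis that maintains macrophages. They were taken by symbol from a table of transcript levels, 3 of 24478 symbols, and cover 6 of its 36141 transcript rows. The table holds RNA sequencing of 10 populations sorted by FACS from liver of mice of strain C57B/L6, either normal or after partial hepatectomy (PH, surgical removal of part of the liver). The leukocyte populations were Kupffer cells (KC, the resident macrophages) and blood cells, and the mesenchymal ones stellate cells (HSC) and Thy1 cells. Endothelium was sorted as endothelial cells (EC) and as the cells that line the sinusoids (LSEC). The epithelial populations were hepatocytes (HC), biliary epithelial cells (BEC), a clonal fraction of these (cBEC), and ducts labelled non progenitor (NPD). Of the 27 libraries of normal liver, KC, blood, HSC, Thy1, EC and NPD had 2 each, LSEC had 3, and HC, BEC and cBEC had 4 each. Of the 28 libraries after PH, blood, Thy1, NPD, BEC and cBEC had 2 each, KC, HSC and EC had 3 each, HC had 4 and LSEC had 5. The time after surgery, the age and genotype of the mice, the sort markers and the number of animals in a library are not given in the sources used here, and nothing there says that replicates came from separate animals. The p-values therefore measure only the spread between these libraries, which may be technical.

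CSF1R is a receptor tyrosine kinase carried by monocytes and macrophages, whose survival, division and maturation depend on it. Its ligands CSF1 and IL34 share little sequence but bind the same receptor, and they are made in different places: CSF1 by many mesenchymal and endothelial cells, IL34 best known from epidermis and brain. Kupffer cells need CSF1R signalling to persist, and macrophages take up and degrade CSF1 through the receptor.

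Csf1 is listed at 3:107543966-107563387 and Il34 at 8:113265729-113329824, both on the minus strand, in the table's coordinates, for which the submitters' processing notes name mm9. The 3 rows of Csf1 and the 2 rows of Il34 are splice variants of a single locus each. The promoter of Csf1 is shown because Csf1 was the member found at some level in most populations and the one with the largest difference between responses to surgery. It is the RefSeq sequence of GRCm38.p6, 3:107760420-107760719, minus strand, 250 bases before to 50 after the start site, with capitals marking GGGCGG (the core of a GC box).
Csf1 promoter: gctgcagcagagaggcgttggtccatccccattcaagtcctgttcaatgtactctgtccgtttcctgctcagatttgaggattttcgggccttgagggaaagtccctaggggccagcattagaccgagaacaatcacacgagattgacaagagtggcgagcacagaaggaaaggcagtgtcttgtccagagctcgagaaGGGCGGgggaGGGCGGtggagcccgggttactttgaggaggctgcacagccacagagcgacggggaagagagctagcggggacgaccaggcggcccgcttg

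GGGCGG, searched on both strands, occurs 2 times in this window, beginning 51 and 41 bases before the start site, and 35.7% of 32851 promoter windows of the same length hold it. The motif bound by AP-1 factors, TGANTCA, occurs 0 times in the Csf1 window and in 7.81% of all windows. The core promoter motif TATAAA also occurs 0 times, against 13.6% of all windows. The RefSeq promoter table used here matched Csf1 alone of the 3 genes.

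The rows of Il34 differ in an exon of 118 bases, exon 6 of 8 in NM_029646, at 8:110746818-110746935 of GRCm38, minus strand, which NM_001135100 with its 7 exons lacks. NM_029646 is 1796 bases long and NM_001135100 is 1709, so that this exon is not their whole difference. The junctions that tell the variants apart are shown with the end of exon 5 in lower case and the first 20 bases of the next exon in capitals.
NM_001135100: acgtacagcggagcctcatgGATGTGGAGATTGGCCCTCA
NM_029646: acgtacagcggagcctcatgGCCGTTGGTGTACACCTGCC

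The rows of Il34 held nearly the same values, as did NM_007778 and NM_001113529 of Csf1. In libraries with at least 1 FPKM, the median ratio to the row used was 0.949 for NM_029646 of Il34, over 33 libraries. For Csf1 it was 0.993 for NM_001113529 and 0.803 for NM_001113530, over 50 libraries. The ratio of NM_001113530 ran from 0.556 to 1.09. The levels below are those of NM_007778 for Csf1, NM_001135100 for Il34 and NM_001037859 for Csf1r, the rows with the highest mean, and they do not tell the isoforms apart.

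All levels are in FPKM (fragment counts scaled to transcript length and library size), which are scaled to length, so that the 3 genes can be set beside each other. The read depth behind them is unknown, and the sum of FPKM per library ran from 624726 to 1203197. The KC and HSC labels were borne out by their markers. The normal KC sort also held LSEC markers, 8 of which summed to 3864 and 5191 FPKM. The summed level of 10 Kupffer cell markers was 22369 and 24859 FPKM in normal KC. That of 8 stellate markers was 19467 and 21437 FPKM in normal HSC. EC and LSEC overlapped in theirs. The sum of 8 endothelial markers had a mean of 4847 FPKM in normal EC and 4861 FPKM in normal LSEC. That of 8 LSEC markers was 3554 and 7492 FPKM in normal EC and 6308 to 11804 FPKM in normal LSEC. The NPD sort stood apart, since 6 mesothelial markers summed to 5930 and 6374 FPKM in normal liver, above the 8 duct markers at 2588 and 3810 FPKM. The Thy1 sort also held both, with mesothelial sums of 1866 and 3007 FPKM and duct sums of 5116 and 867 FPKM. Endothelial markers in Thy1 summed to 1328 and 1640 FPKM in normal liver and to 1793 and 3542 FPKM after PH. The library titled PH cBEC 1 carries a treatment label of normal and was kept as titled, so that every group value of PH cBEC below includes it. In bulk sorts such as these, fewer cells of a type and less RNA per cell cannot be told apart.

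The ligand Csf1 was found in every population and was highest in NPD and the mesenchymal sorts. In normal NPD it stood at 129 and 162 FPKM, in normal HSC at 88.2 and 177 FPKM, and in normal Thy1 at 79.4 and 113 FPKM. These 3 sorts led in the same order after PH, with NPD overlapping HSC and HSC overlapping Thy1 in both states, so that the sort with the most Csf1 is not settled. Normal LSEC gave 35.5, 70.5 and 78.9 FPKM and normal EC 34.8 and 61.2 FPKM, below every library of Thy1.

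A lower tier followed. Normal KC had 23.2 and 26.4 FPKM, normal blood 16.7 and 23.3 FPKM, normal cBEC 11.7, 20.7, 21.04 and 22.1 FPKM, and normal BEC 8.85, 12.1, 12.4 and 14.7 FPKM, each overlapping with the next. Hepatocytes held the least, 1.25 ± 0.46 FPKM (SD, n = 4) in normal liver and 0.90 ± 0.25 FPKM (SD, n = 4) after PH. Csf1 in the cBEC sort lay below that in NPD, a difference of -2.91 ± 0.33 (SE) on the log2(FPKM + 1) scale in normal liver (limma, adjusted p = 2.81e-09) and of -1.79 ± 0.39 after PH (adjusted p = 0.000337). Of all genes tested, 32.0% and 26.8% differed between these sorts in normal liver and after PH. The mesothelial sum in normal cBEC was 146 to 502 FPKM, against the 5930 and 6374 FPKM in NPD given above. Its part in the Csf1 difference was not tested.

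**Figure D1:**
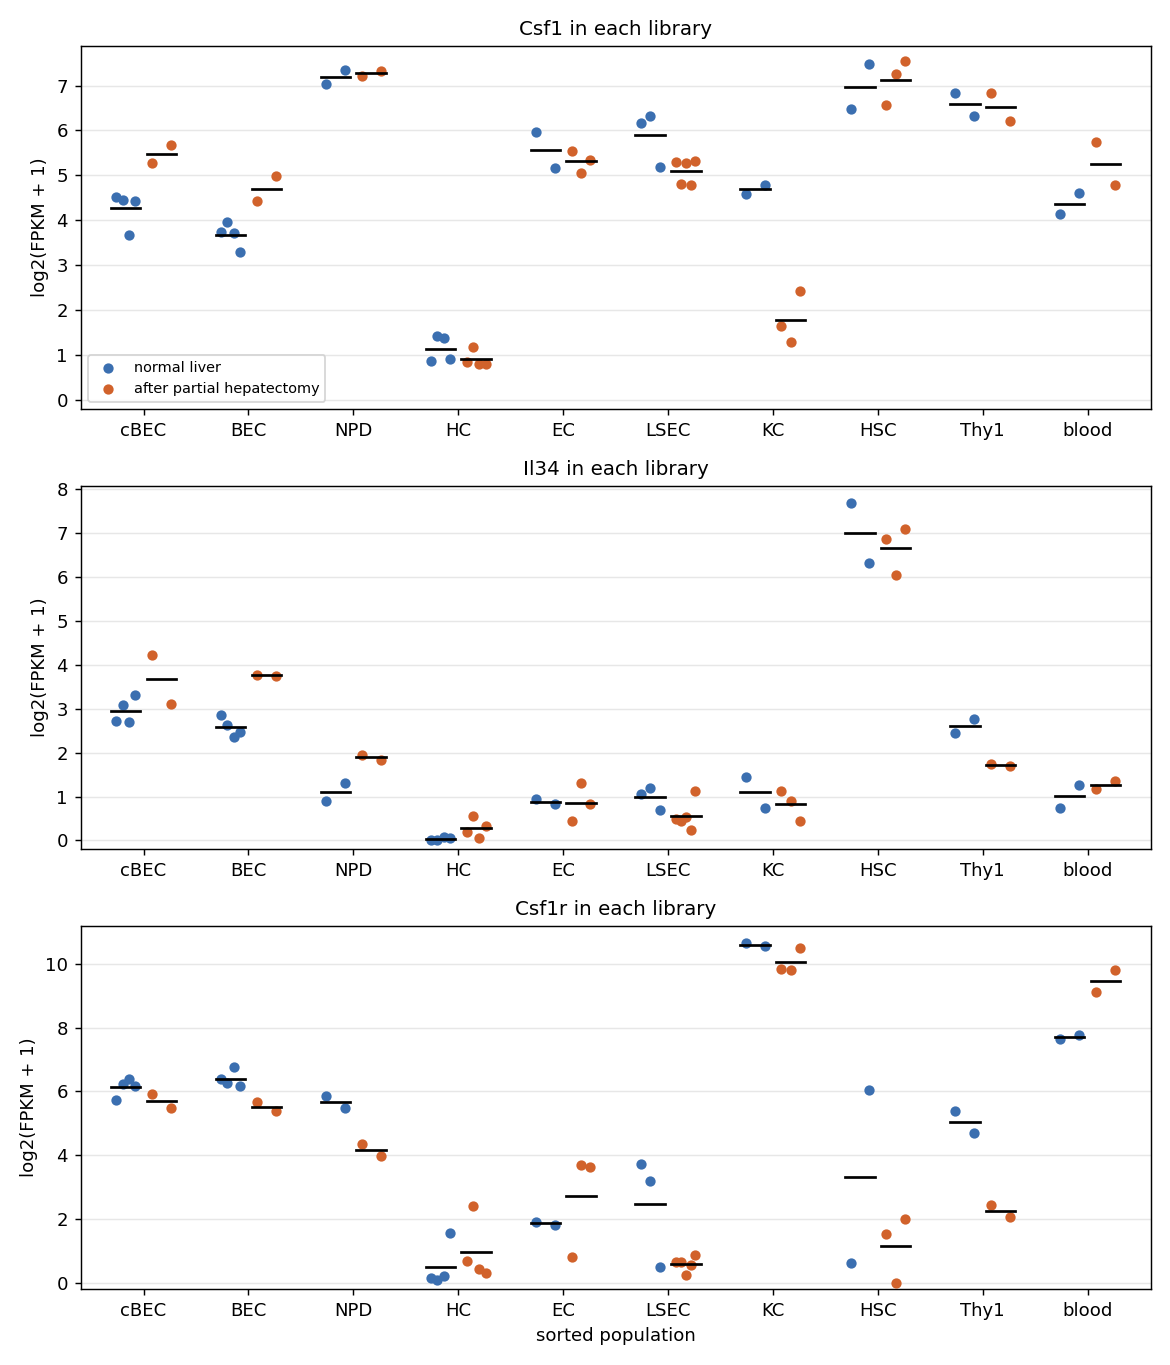
Level of Csf1, Il34 and Csf1r in each of the 55 libraries by sorted population, on a log2(FPKM + 1) axis, with blue points for normal liver, orange points for liver after partial hepatectomy and a black line at each group's mean on that scale. Il34 in HSC stands above all other libraries, Csf1r is highest in KC and rises in blood, and Csf1 in KC drops from 23.2 and 26.4 FPKM to between 1.45 and 4.40 FPKM.

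Il34 had a far narrower distribution than Csf1. It was listed at 205 and 78.4 FPKM in normal HSC and at 116, 64.8 and 136 FPKM after PH, and no library of any other population came above 17.7 FPKM. The mean in HSC was 20.6 times that of cBEC, the next population, in normal liver and 8.33 times it after PH. Stellate cells, the vitamin A-storing pericytes of the sinusoid, were thus the sort with the most Il34 in both states.

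Against the other mesenchymal sort, Thy1, Il34 was higher in HSC by 4.40 ± 0.36 (SE) in normal liver (limma, adjusted p = 7.23e-13) and by 4.95 ± 0.33 after PH (adjusted p = 2.24e-15), all on the log2(FPKM + 1) scale. Csf1 did not pass the test between these sorts, at 0.39 ± 0.39 (adjusted p = 0.487) and 0.60 ± 0.35 (adjusted p = 0.208). The share of all genes that passed was 33.5% in normal liver and 32.2% after PH. Against LSEC, the lining cells next to which stellate cells lie, Il34 was higher in HSC by 6.02 ± 0.33 (adjusted p = 3.64e-18) and 6.11 ± 0.27 (adjusted p = 1.01e-21), where 30.8% and 34.9% of all genes passed. Csf1 was also higher in HSC than in LSEC, by 1.09 ± 0.35 in normal liver (adjusted p = 0.0154) and by 2.02 ± 0.28 after PH (adjusted p = 1.31e-07). The normal difference in Csf1 rested on single libraries: it was 0.59 (adjusted p = 0.355) without replicate 2 of normal HSC and 0.74 (adjusted p = 0.137) without replicate 3 of normal LSEC.

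The biliary sorts were the other place where Il34 was measured at a level. It stood at 5.44, 5.62, 7.54 and 8.95 FPKM in normal cBEC and at 4.10, 4.54, 5.21 and 6.25 FPKM in normal BEC, and normal Thy1 overlapped with both at 4.43 and 5.76 FPKM. In NPD it was 0.85 and 1.48 FPKM. The cBEC and NPD sorts thus stood in opposite orders for the ligands, with more Csf1 in NPD and more Il34 in cBEC. Il34 was higher in cBEC by 1.86 ± 0.31 (limma, adjusted p = 7.07e-06) in normal liver and by 1.77 ± 0.36 (adjusted p = 0.000172) after PH. The part of the mesothelial markers of NPD in this was not tested. EC, LSEC, KC and blood of normal liver all lay between 0.61 and 1.74 FPKM and overlapped. In normal HC, Il34 was listed at 0 in 2 libraries and at 0.04 and 0.06 FPKM in the others.

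Set as a share of the summed ligand transcripts, Il34 made up 30.7% and 69.9% in the libraries of normal HSC, and 30.0% to 55.4% after PH. The library of normal HSC with the higher Il34 had the lower Csf1, so that their sums, 293 and 255 FPKM, lay closer together than either gene's levels. In cBEC the share was 27.1 ± 5.1% (SD, n = 4) and in BEC 29.7 ± 4.6% (SD, n = 4) of normal liver. In NPD it was 0.78 ± 0.18% (SD, n = 2), in LSEC 1.61 ± 0.10% (SD, n = 3) and in EC 1.82 ± 0.49% (SD, n = 2). Csf1 was therefore nearly the whole ligand signal of endothelium and NPD, and Il34 a sizeable share only in the stellate and biliary sorts among the populations of normal liver.

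**Figure D2:**
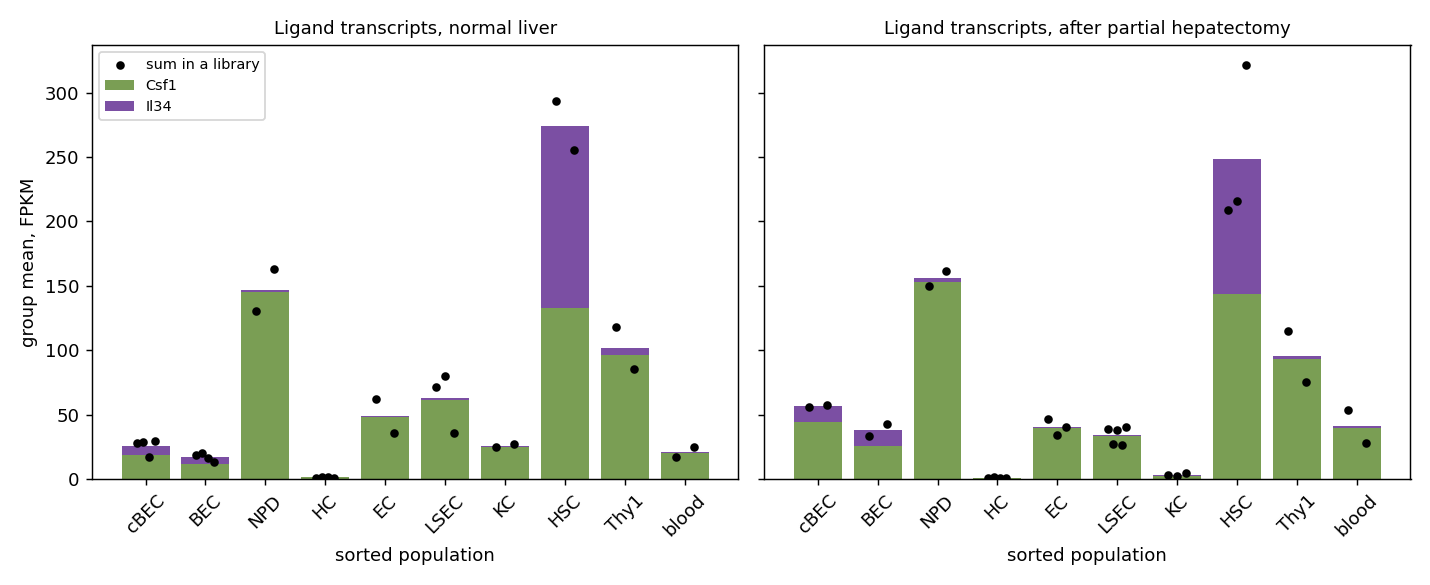
Group means of Csf1 (green) and Il34 (purple) stacked in FPKM for each sorted population, left for normal liver and right for liver after partial hepatectomy, with black points for the sum in each library. HSC has the tallest bars, with Il34 at 50.3% of the ligand sum on average in normal liver and 42.5% after surgery, while NPD and Thy1 are almost all Csf1.

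The receptor was highest in the macrophage sort. Csf1r lies on chromosome 18, listed from 61265226 to 61290793 on the plus strand. Csf1r stood at 1612 and 1500.3 FPKM in normal KC and at 198 and 217 FPKM in normal blood, a mean 7.50 times lower. The difference, KC minus blood, was 2.90 ± 0.95 (SE) on the log2(FPKM + 1) scale (limma, adjusted p = 0.0119), in a comparison where 42.7% of all genes passed. Its adjusted p ran from 0.0492 to 0.0644 as each of the 4 libraries was left out in turn. After PH, KC had 890, 913 and 1443 FPKM and blood 556 and 904 FPKM, so the sorts overlapped. The difference was then 0.57 ± 0.87 (adjusted p = 0.857), where 13.7% of all genes passed.

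Below the leukocytes, Csf1r formed a second tier in the BEC, cBEC and NPD sorts. Normal BEC had 71.7, 75.5, 83.7 and 109 FPKM, normal cBEC 51.9, 70.8, 74.8 and 82.1 FPKM, and normal NPD 43.9 and 56.4 FPKM. Normal Thy1 followed with 25.2 and 40.8 FPKM. The endothelial sorts held little, 2.51 and 2.77 FPKM in EC and 0.41, 8.11 and 12.3 FPKM in LSEC. Hepatocytes had 0.57 ± 0.91 FPKM (SD, n = 4) in normal liver.

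Macrophage markers were read beside Csf1r in the biliary sorts. In normal BEC the 10 Kupffer cell markers summed to between 121 and 452 FPKM, or 1.19% of the normal KC mean, while Csf1r stood at 5.45% of it. In normal cBEC the marker sum was 6.87 to 142 FPKM, or 0.310% of the KC mean, against 4.49% for Csf1r. The cBEC library with the highest Csf1r, replicate 3 at 82.1 FPKM, was the one with the lowest marker sum, 6.87 FPKM, and it listed Spi1 (the myeloid transcription factor PU.1) and Tyrobp (a myeloid adaptor protein) at 0. Csf1r in that library did not follow the level of Kupffer cell markers.

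After PH the separation was wider. Csf1r was 43.3 and 59.3 FPKM in PH cBEC and 40.6 and 50.2 FPKM in PH BEC, or 4.74% and 4.20% of the PH KC mean. The Kupffer cell markers summed to 0 and 5.22 FPKM in PH cBEC and to 6.13 and 3.04 FPKM in PH BEC, or 0.00612% and 0.0107% of the PH KC mean. Clec4f (a Kupffer cell lectin), Spi1 and Tyrobp were listed at 0 in both libraries of PH cBEC. Of the 10 markers, 10 and 7 were listed at 0 in these libraries and 3 and 4 in those of PH BEC. Csf1r transcripts in the biliary sorts after surgery were thus measured with the defining markers of Kupffer cells at or near 0. Zeros in this table can be failed estimates, since in other sorts it often lists the most abundant hepatocyte transcripts at 0.

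In some other groups Csf1r moved with those markers from library to library. In normal HSC it was 0.55 FPKM in replicate 1 and 64.5 FPKM in replicate 2, where the Kupffer cell markers summed to 97.1 and 1290.0 FPKM. In normal LSEC the replicate with 0.41 FPKM had a marker sum of 15.1 FPKM, against 115 and 292 FPKM in the others. In PH EC Csf1r was 0.74, 12.04 and 11.3 FPKM, beside sums of 28.1, 287 and 151 FPKM. Normal NPD had 56.4 and 43.9 FPKM beside sums of 406 and 190 FPKM. Normal Thy1 had 40.8 and 25.2 FPKM beside sums of 169 and 101 FPKM. In PH Thy1 the order was reversed, with 4.40 and 3.19 FPKM beside sums of 66.4 and 112 FPKM. The part of the macrophage markers in these values was not tested.

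EC and LSEC did not differ past the threshold in normal liver for any of the 3 genes, where 1.47% of all genes did. After PH, Csf1r was higher in EC than in LSEC by 2.12 ± 0.69 (SE, adjusted p = 0.0489), where 8.36% of all genes passed. In PH LSEC it was at most 0.83 FPKM, and the difference lost its call when any of 7 of the 8 libraries was left out (adjusted p up to 0.326).

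**Figure D3:**
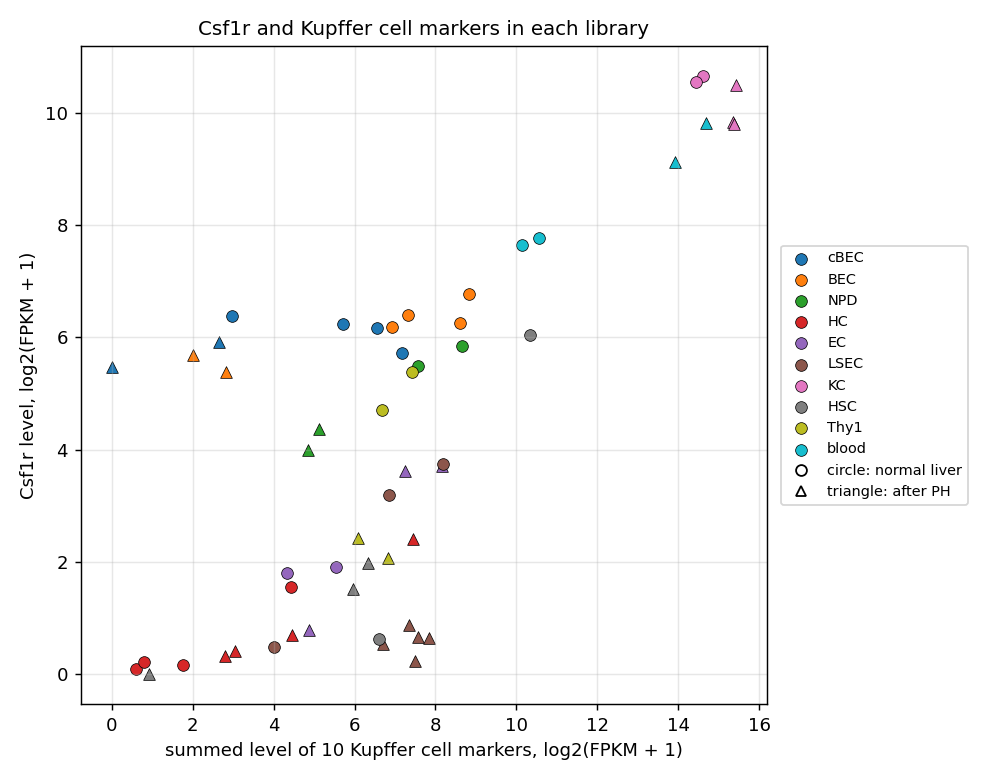
Csf1r level against the summed level of 10 Kupffer cell markers in each of the 55 libraries, both on log2(FPKM + 1) axes, coloured by population, with circles for normal liver and triangles for liver after partial hepatectomy. The cBEC and BEC libraries after surgery sit between 40.6 and 59.3 FPKM of Csf1r at marker sums of at most 6.13 FPKM, while PH LSEC libraries with at most 0.83 FPKM of Csf1r have sums of 103 to 227 FPKM, in which C1qb stands at 82.9 to 181 FPKM and Clec4f at no more than 2.15 FPKM.

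The response to surgery asks which sources of the ligands, and which carriers of the receptor, change in the regenerating liver. Over all 10 populations the responses of the 3 genes differed between populations, by a moderated F test of the 9 interaction terms in 1 fit of all 20 groups (limma, adjusted p = 2.24e-07 for Csf1, 0.00535 for Il34 and 0.0335 for Csf1r), where 47.8% of all genes passed. For Csf1r the call was lost when any of 9 libraries was left out, with adjusted p up to 0.0805, and the adjusted p was 0.00301 without replicate 2 of normal HSC.

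**Figure D4:**
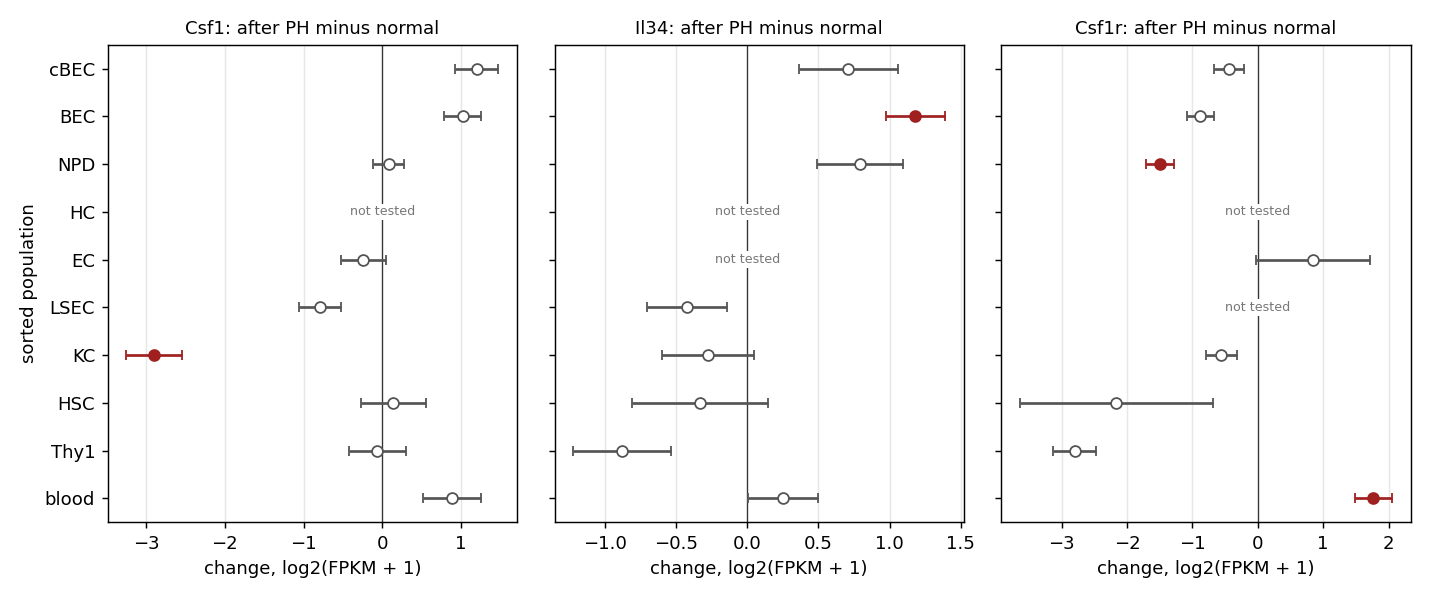
Change of Csf1, Il34 and Csf1r after partial hepatectomy in each sorted population, as the difference in mean log2(FPKM + 1) with its SE from limma, filled red where the adjusted p is under 0.05 and open otherwise. Csf1 fell by 2.90 in KC, Il34 rose by 1.18 in BEC, and Csf1r fell by 1.49 in NPD and rose by 1.77 in blood.

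Csf1 fell in Kupffer cells. It went from 23.2 and 26.4 FPKM in normal KC to 2.14, 1.45 and 4.40 FPKM after PH, with no overlap. The change was -2.90 ± 0.35 (SE) on the log2(FPKM + 1) scale (limma, adjusted p = 0.00357), in a population where 36.8% of the genes tested changed. It remained at -2.81 without replicate 2 of normal KC, where its adjusted p was 0.0515. The summed level of 8 LSEC markers in the same sort went from 3864 and 5191 FPKM to between 299 and 550 FPKM, and that of 8 endothelial markers from 1664 and 2071 FPKM to between 322 and 585 FPKM. Normal LSEC themselves held Csf1 at 61.6 ± 23.1 FPKM (SD, n = 3). The part of these endothelial transcripts in the fall of Csf1 was not tested.

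Csf1r in KC was lower in all 3 libraries after PH, at 890, 913 and 1443 FPKM, than in the 2 of normal liver, at 1500.3 and 1612 FPKM. Its change of -0.56 ± 0.24 did not pass (adjusted p = 0.118), and it was -0.79 with an adjusted p of 0.000947 without replicate 3 of PH KC. The Kupffer cell markers meanwhile went from 22369 and 24859 FPKM to between 41662 and 43915 FPKM, mostly through Marco, whose mean went from 338 to 7180 FPKM, and Cd5l, from 4292 to 11427 FPKM. Clec4f stood at a mean of 3906 FPKM before and 4662 FPKM after, and Adgre1 at 681 and 685 FPKM. Il34 did not pass, with levels of at most 1.74 FPKM in all 5 libraries.

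Blood cells went the other way. Csf1r was 198 and 217 FPKM in normal blood and 556 and 904 FPKM after PH, a rise of 1.77 ± 0.28 (SE, adjusted p = 0.00585) where 64.0% of the genes tested changed and the median change of all genes was -0.31. The adjusted p was 0.0905 without replicate 1 and 0.0798 without replicate 2 of normal blood, and 0.142 in the fit of all groups. Csf1 went from 16.7 and 23.3 FPKM to 52.4 and 26.6 FPKM without passing (0.89 ± 0.37, adjusted p = 0.0906), and Il34, at 0.67 to 1.54 FPKM in all 4 libraries, did not pass (adjusted p = 0.410).

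The marker sums of the blood sort changed along with Csf1r. Kupffer cell markers summed to 1129 and 1519 FPKM in normal blood and to 15442 and 26617 FPKM after PH, which is 36.2% and 62.4% of the PH KC mean. LSEC markers went from 797 and 894 FPKM to 6334 and 2839 FPKM. Lymphocyte markers went from 3749 and 3868 FPKM to 57.4 and 128 FPKM, and neutrophil markers from 4158 and 3846 FPKM to 2389 and 995 FPKM. The part of this shift in the rise of Csf1r was not tested.

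The fall of Csf1 in KC differed from its change in blood. The difference between the responses, KC minus blood, was -3.79 ± 0.52 (SE, adjusted p = 1.53e-07), in a comparison where 35.7% of all genes passed. In normal liver the libraries of KC and blood overlapped in Csf1, with a difference of 0.31 ± 0.39 (adjusted p = 0.594), and after PH Csf1 was lower in KC, with a difference of -3.47 ± 0.35 (adjusted p = 4.99e-10). Csf1r and Il34 did not pass in the same test, with adjusted p of 0.165 and 0.464. After PH the LSEC marker sums fell in KC and rose in blood, as given above. Their part in the difference of Csf1 was not tested.

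In the biliary sorts the means of both ligands were higher after PH, and Il34 in BEC passed the test. Il34 in BEC went from between 4.10 and 6.25 FPKM to 12.7 and 12.4 FPKM, a rise of 1.18 ± 0.21 (SE, adjusted p = 0.0346), in a population where 1.81% of the genes tested changed. The call was lost without replicate 4 of normal BEC (adjusted p = 0.0756) and without either library of PH BEC (0.251 and 0.275), while the change stayed between 1.11 and 1.27. Csf1 in BEC went from between 8.85 and 14.7 FPKM to 20.5 and 30.5 FPKM, again with no overlap, and did not pass (1.02 ± 0.24, adjusted p = 0.0771). Csf1r in BEC was lower in both PH libraries than in all 4 normal ones, without passing (-0.88 ± 0.21, adjusted p = 0.0823).

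In cBEC, Csf1 was 37.9 and 49.98 FPKM after PH against at most 22.1 FPKM in normal liver. Its change of 1.20 ± 0.27 did not pass in the fit of that sort alone (adjusted p = 0.299), where 0.0681% of the genes tested did, and passed in the fit of all groups (adjusted p = 0.0352). Il34 in PH cBEC was 17.7 and 7.59 FPKM and overlapped with normal cBEC (0.71 ± 0.35, limma, adjusted p = 0.523). The library at 17.7 FPKM is replicate 1, whose treatment label is normal. With replicates left out and under other settings, the change of Il34 in cBEC ran from 0.15 to 1.27. Csf1r also overlapped (-0.44 ± 0.23, adjusted p = 0.539). In BEC the marker sums of Kupffer cells, monocytes and dendritic cells, neutrophils, lymphocytes, LSEC and EC were lower in both PH libraries than in all 4 normal ones, that of LSEC going from between 107 and 387 FPKM to 9.67 and 13.8 FPKM. In cBEC this held for the Kupffer cell and EC sums, while the others overlapped. LSEC markers there stood at 13.3 to 159 FPKM before and 13.4 and 18.5 FPKM after. The monocyte and dendritic cell sum had a mean of 6.68 FPKM before and 7.45 FPKM after. Most of that sum was Zbtb46, at a mean of 6.13 FPKM before and 7.34 FPKM after. In normal liver Zbtb46 was highest in LSEC, at a mean of 75.7 FPKM.

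In NPD, Csf1r fell from 43.9 and 56.4 FPKM to 14.8 and 19.6 FPKM. The change was -1.49 ± 0.22 (SE, adjusted p = 0.0184), where 15.2% of the genes tested changed, and it did not pass in the fit of all groups (adjusted p = 0.377) or without either PH library (0.207 and 0.297). Kupffer cell markers in NPD went from 190 and 406 FPKM to 27.8 and 33.9 FPKM over the same comparison, and their part in the fall of Csf1r was not tested. Csf1 was at 147 and 159 FPKM after PH against 129 and 162 FPKM before (0.08 ± 0.20, adjusted p = 0.803). Il34 was 2.55 and 2.87 FPKM against 0.85 and 1.48 FPKM (0.79 ± 0.30, adjusted p = 0.135). The responses of cBEC and NPD did not differ past the threshold for any of the 3 genes, where 3.79% of all genes did.

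In the stellate and Thy1 sorts none of the 3 genes passed the test in the fit of the sort's own libraries. Csf1 in HSC was 88.2 and 177 FPKM in normal liver and 93.2, 151 and 186 FPKM after PH (0.14 ± 0.41, adjusted p = 0.945). Il34 in HSC likewise overlapped (-0.33 ± 0.48, adjusted p = 0.878). Csf1r in HSC was at most 2.97 FPKM after PH, and its change of -2.16 ± 1.47 (adjusted p = 0.735) reversed to 0.54 without the normal library at 64.5 FPKM. Replicates spread widely in this sort, and 0.00853% of the genes tested in it changed.

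In Thy1, Csf1 was 79.4 and 113 FPKM before and 73.4 and 112 FPKM after PH (-0.06 ± 0.36, adjusted p = 0.944). Csf1r was 25.2 and 40.8 FPKM before and 3.19 and 4.40 FPKM after, a change of -2.80 ± 0.33 that did not pass in the fit of that sort alone (adjusted p = 0.129), where 0.00747% of the genes tested did, and passed in the fit of all groups (adjusted p = 0.0477). Kupffer cell markers in Thy1 summed to 101 and 169 FPKM before and 66.4 and 112 FPKM after, a sum in which C1qb went from a mean of 23.3 to 62.1 FPKM. Marco overlapped, at 1.20 and 0.72 FPKM before and 2.10 and 0.27 FPKM after. Clec4f, Cd5l, Vsig4 and Adgre1 of the list were lower after PH along with Csf1r. Clec4f went from a mean of 22.2 to 0.37 FPKM and Cd5l from 19.7 to 0.86 FPKM. Vsig4 went from 9.21 to 0.68 FPKM and Adgre1 from 4.10 to 0.17 FPKM. The part of these markers in the change of Csf1r was not tested. Il34 in Thy1 was 4.43 and 5.76 FPKM before and 2.23 and 2.35 FPKM after (-0.88 ± 0.34, adjusted p = 0.273). Responses of HSC did not differ from those of Thy1 or of LSEC past the threshold for any of the 3 genes, in comparisons where 8.42% and 6.26% of all genes did.

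Endothelial Csf1 was lower after PH in LSEC without passing the test. It went from 35.5, 70.5 and 78.9 FPKM to between 26.6 and 39.2 FPKM over 5 libraries (median 38.0 FPKM), a change of -0.79 ± 0.26 (SE, adjusted p = 0.0949) where 8.46% of the genes tested changed. Replicate 3 of normal LSEC, at 35.5 FPKM, lay inside the range of the PH libraries, and without it the change was -1.14 with an adjusted p of 0.0151. In EC, Csf1 was 34.8 and 61.2 FPKM before and 32.4, 39.8 and 45.9 FPKM after (-0.24 ± 0.28, adjusted p = 0.808), where 0.0249% of the genes tested changed. Csf1r in EC did not pass either (0.85 ± 0.87, adjusted p = 0.780). Il34 was at most 1.47 FPKM in every library of both sorts. The responses of EC and LSEC did not differ past the threshold for any of the 3 genes, where 0.345% of all genes did. Hepatocytes were below the level tested for all 3 genes.

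The listed partners of the receptor were 20 genes: 2 other known binding partners of IL34 (Ptprz1 and the syndecan Sdc1), the sheddase Adam17, transcription factors and signalling proteins. After PH, 6 of 18 tested changed in KC, 3 in each direction, where 36.8% of all genes tested changed, with a median of 0.04 over the 18 against -0.04 over all genes. The share of partners called was thus close to that of all genes. Socs1, an inhibitor of cytokine signalling, fell from 4.27 and 12 FPKM to between 0.31 and 1.22 FPKM (-2.28 ± 0.45, adjusted p = 0.0142), and the transcription factor Ets2 fell from 140 and 146 FPKM to between 23.6 and 62.9 FPKM (-2.06 ± 0.44, adjusted p = 0.0179). The adaptors Tyrobp and Grb2 rose by 0.55 ± 0.11 (adjusted p = 0.0143) and 0.50 ± 0.13 (adjusted p = 0.0292), and the phosphatase Ptpn6 by 0.47 ± 0.10 (adjusted p = 0.0179). Cbl, the ubiquitin ligase that marks activated CSF1R for degradation, fell from a mean of 33.5 to 18.9 FPKM (-0.79 ± 0.16, adjusted p = 0.0139).

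In blood 14 of 19 tested partners changed, 6 higher and 8 lower, where 64.0% of all genes tested changed, with a median of -0.49 against -0.31 over all genes. That count too is near the share of all genes. Cebpb, a transcription factor of myeloid cells, rose from 0.59 and 3.03 FPKM to 91.4 and 113 FPKM (5.34 ± 0.47, adjusted p = 0.00146). Spi1 rose from 98.7 and 112 FPKM to 201 and 302 FPKM (1.22 ± 0.25, adjusted p = 0.0114). Sdc1 (-2.45 ± 0.50, adjusted p = 0.0121) and Irf8, a factor of monocyte and dendritic cell development (-2.34 ± 0.27, adjusted p = 0.00257), fell the furthest. These genes moved in the same comparison as the marker sums of the blood sort given above.

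In BEC 3 of 18 tested partners fell and 0 rose, where 1.81% of all genes tested changed, with a median of -0.26 against -0.12 over all genes: Tyrobp (-3.42 ± 0.46, adjusted p = 0.0133), Spi1 (-2.14 ± 0.35, adjusted p = 0.0243) and Irf8 (-1.78 ± 0.33, adjusted p = 0.0385). All are genes of myeloid cells. Their means went to 0.74, 0.0169 and 0.34 FPKM after PH, in the sort in which Csf1r stood at 40.6 and 50.2 FPKM. In NPD 5 of 19 changed, against 15.2% of all genes tested: Sdc1 (3.44 ± 0.81, adjusted p = 0.0494), Runx1 (1.65 ± 0.27, adjusted p = 0.0222) and Myc (1.64 ± 0.33, adjusted p = 0.0346) rose, and Tyrobp (-2.86 ± 0.26, adjusted p = 0.00921) and Ptprz1 (-1.43 ± 0.25, adjusted p = 0.0260) fell. In HC 1 of 10 tested changed, Myc, which rose from a mean of 1.51 to 5.998 FPKM (1.46 ± 0.33, adjusted p = 0.0309), where 6.19% of all genes tested changed. By limma, 0 of 16 in cBEC, 17 in EC, 16 in LSEC, 15 in HSC and 20 in Thy1 passed, where 1, 2, 2, 1 and 5 had an unadjusted p under 0.05. The share of all genes tested that passed in these sorts was 0.0681%, 0.0249%, 8.46%, 0.00853% and 0.00747%.

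The alternative IL34 receptors had their own places. Ptprz1, a receptor phosphatase, was at 5.16 and 5.48 FPKM in normal NPD and 1.70 and 4.06 FPKM in normal Thy1, and under 1 FPKM in every library of the other populations. Sdc1 was highest in hepatocytes, at 112 to 211 FPKM in normal liver, and stood at 104 and 155 FPKM in normal EC. It was listed at 0 in all 5 libraries of KC, though zeros in this table can be failed estimates, as said above. Adam17, which sheds membrane proteins including CSF1R, was highest in KC, at 83.7 and 87.8 FPKM in normal liver and 86.6 to 95.6 FPKM after PH.

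Of 12 related growth factors and receptors, 4 of 8 tested fell in KC and 0 rose, where 36.8% of all genes tested changed, with a median of -0.74 against -0.04 over all genes. The receptor Kit fell from 42.4 and 44.2 FPKM to between 3.62 and 9.64 FPKM (-2.78 ± 0.37, adjusted p = 0.00454), and Il3ra fell too (-1.15 ± 0.23, adjusted p = 0.0147). Csf3r, the G-CSF receptor, and Kitl, the ligand of KIT, also fell, with changes of -0.94 ± 0.22 (adjusted p = 0.0251) and -0.86 ± 0.25 (adjusted p = 0.0443). Kit in normal LSEC was 134 to 158 FPKM, and the LSEC markers in the KC sort fell in the same comparison. In LSEC itself Kit rose to between 264 and 453 FPKM (1.25 ± 0.21, limma, adjusted p = 0.00898). It was 1 of 6 tested, where 8.46% of all genes tested changed.

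Kitl was the single listed factor called in NPD, of 6 tested, where 15.2% of all genes tested changed. It fell from 68.0 and 73.5 FPKM to 21.7 and 22.3 FPKM (-1.64 ± 0.15, limma, adjusted p = 0.00921), while Csf1 in the same libraries did not pass. In blood 6 of 10 changed, where 64.0% of all genes tested did: Kitl (2.40 ± 0.24, adjusted p = 0.00191) and Il3ra (1.74 ± 0.26, adjusted p = 0.00487) rose, Flt3 (-3.32 ± 0.24, adjusted p = 0.00106) and its ligand Flt3l (-2.27 ± 0.17, adjusted p = 0.00104) fell the furthest, and Csf2 and Csf3r fell too. By limma, 0 of 5 in cBEC, 5 in BEC, 2 in HC, 7 in EC, 6 in HSC and 8 in Thy1 passed, where 2, 2, 2, 0, 2 and 2 had an unadjusted p under 0.05. The share of all genes tested that passed there was 0.0681%, 1.81%, 6.19%, 0.0249%, 0.00853% and 0.00747%.

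The genes whose levels were most like those of each member were found by Pearson r over the 20 group means of log2(FPKM + 1), among 16527 genes, as a description of points that share libraries. Csf1 was most like Phlda3 (r = 0.933), Sparc (r = 0.926), a matrix protein of mesenchymal cells, and Lats2 (r = 0.920), a kinase of the Hippo pathway. Il34 was most like Fam171b (r = 0.980), Syt9 (r = 0.975) and Tmem178 (r = 0.961). Csf1r was most like Lpcat2 (r = 0.973), Csf2ra (r = 0.959), the alpha chain of the GM-CSF receptor, and Epsti1 (r = 0.956). Csf2ra was also measured in the biliary sorts, at 16.8 to 34.8 FPKM in normal cBEC and at 15.9 and 30.2 FPKM in PH cBEC. Between the members themselves, r was 0.48 for Csf1 with Il34, -0.07 for Csf1 with Csf1r and -0.06 for Il34 with Csf1r.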

How the data were processed

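The members and the lists were chosen with earlier results of these data known. The deposited table gives, per the file headers, 1 column for each of the 55 libraries, and by its name the authors deposited FPKM; values of the hepatocyte columns are rounded to 2 decimals. The submitters' processing notes name CASAVA 1.8.2, Bowtie 1.0.0 and mm9, with no role. There were 0 further columns of samples. Each symbol was read from the transcript row whose mean over the 55 libraries was highest, and groups follow the sample titles.

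Tests were run on log2(FPKM + 1) with limma 3.58.1 (R 4.3.3), two-sided, with trended and robust moderation and Benjamini-Hochberg adjustment over all genes tested at a threshold of 0.05. Changes on this scale understate those of low genes. A gene was tested if its level reached 1 FPKM in a number of libraries equal to the size of the smallest group compared. Il34 in EC, Csf1r in LSEC and all 3 members in HC did not pass this filter. PH was compared with normal liver within a population's own libraries. Comparisons between populations used 1 fit of all 20 groups, whose shared spread for Csf1r includes the normal HSC libraries. Depth is unknown, so no counting interval is given.

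Named were the members, the 3 genes most like each, and from the lists the 2 largest rises and falls that passed in a population and the levels of genes that are sole members of a role. Ptpn6 and Cbl in KC, Irf8 in BEC, Myc in NPD, Csf2 in blood and Csf2ra by library were named after their values were seen. A partner that the rule would name in blood is counted but not reported here. Alternatives were a pseudocount of 0.1, no filter, quantile and upper-quartile scaling, the mean of a symbol's rows, a replicate block, a single fit of all groups, genes under 10 FPKM in hepatocytes, and leaving out each replicate. The fits were tested on simulated data. There the fits of a population's own libraries recovered none of the planted changes in Thy1 and blood and fewer than elsewhere in NPD, all with 2 libraries a group. Each simulated gene had a spread pooled over all 20 groups, while 64.0% of genes passed in the real blood libraries. The simulation thus does not give the power in a single sort. A gene that did not pass in these sorts is not shown to be unchanged. False calls were 16 of 79 in NPD's own fit, against 10 of 197 in that of LSEC. In the fit of all groups they were 27 of 214 in cBEC and 18 of 188 in Thy1. Figures used Python 3.11.15 and matplotlib 3.10.9.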

Additional observations from a re-analysis of the deposited data

Results flagged for a closer look

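In groups of 4 or 5 libraries, 5 of 15 member values examined had a library far from the others, where chance gives about 0.75. These were Csf1 in normal cBEC replicate 3, at 11.7 FPKM, Csf1 in PH HC replicate 2, at 1.27 FPKM, Il34 in PH LSEC replicate 5, at 1.17 FPKM, Csf1r in normal HC replicate 4, at 1.93 FPKM, and Csf1r in PH HC replicate 2, at 4.30 FPKM. The hepatocyte libraries with the highest Csf1r were also those with the highest Kupffer cell marker sums, 20.7 FPKM in the normal one and 173 FPKM in that after PH. The part of those markers was not tested.

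The responses to PH differed between populations for all 3 genes, by the F test with adjusted p of 2.24e-07 for Csf1, 0.00535 for Il34 and 0.0335 for Csf1r, and between KC and blood for Csf1, at -3.79 on the log2(FPKM + 1) scale.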

How the results depend on the processing

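Fits of 2 to 5 libraries a group carry wide errors, and the FPKM give no depth. Beside the 544 values with a replicate left out and the 512 values under other settings that kept their direction and side of the threshold, 71 and 36 did not. The cause was not tested. Same-numbered replicates of normal liver and PH within a population mostly did not deviate together (4 of 23 pairs had a correlation over 0.1, range -0.63 to 0.45). In NPD, Thy1 and blood, with 2 libraries in each state, both pairs held the same value. The numbers were not used as pairs in the main fits. This check cannot tell whether libraries of different populations came from the same animals. With a replicate block, Csf1 (0.85) and Csf1r (-0.80) passed in BEC, Csf1r passed in KC (-0.79) and Thy1 (-2.80), Csf1 in HSC reversed (-0.073), Csf1r between EC and LSEC after PH lost its call (2.20), and the F test for Csf1r gave an adjusted p of 0.0521.

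With quantile normalization Il34 in BEC lost its call (1.34), Csf1r in KC (-0.87) and Csf1 in blood (1.07) passed, and Csf1r in EC against LSEC after PH lost its call (1.71). The same setting reversed the uncalled Csf1 in NPD (-0.0023) and HSC (-0.048), Il34 in KC (0.037), Il34 in KC against blood (0.034) and EC against LSEC (-0.0063) after PH, and the Il34 responses of HSC against LSEC (-0.21) and cBEC against NPD (0.40). Upper-quartile scaling reversed Csf1 in NPD (-0.027) and the Il34 response of cBEC against NPD (0.12), took the call from Csf1r in EC against LSEC after PH (2.05), and moved mean Csf1 in PH NPD to 126 FPKM and Csf1r in normal KC to 1437 FPKM. The mean over rows moved Csf1 in PH NPD to 142 FPKM. Without the filter Il34 in BEC (1.18), Csf1r in NPD (-1.49), Csf1r in blood (1.77) and Csf1r in EC against LSEC after PH (2.12) lost their calls, and the F test for Csf1r gave 0.0661. A pseudocount of 0.1 took the call from Csf1r in KC against blood of normal liver (2.91), EC against LSEC after PH (3.07) and the F test (0.144). In a single fit of all groups Csf1 in cBEC (1.20) and Csf1r in Thy1 (-2.80) passed, and Csf1r in NPD (-1.49) and blood (1.77) did not.

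Leaving out each replicate, Csf1 after PH ranged from 0.74 to 1.30 in BEC, -0.078 to 0.24 in NPD, -0.64 to 0.16 in EC, -1.14 to -0.57 in LSEC, -3.22 to -2.65 in KC, -0.36 to 0.64 in HSC, -0.37 to 0.24 in Thy1 and 0.41 to 1.36 in blood. Il34 ranged from 1.11 to 1.27 in BEC, 0.58 to 1.003 in NPD, -0.63 to 0.074 in KC, -1.02 to 0.36 in HSC and -0.018 to 0.52 in blood. Csf1r ranged from -1.68 to -1.30 in NPD, -0.79 to -0.44 in KC, -4.86 to 0.54 in HSC and 1.42 to 2.12 in blood, and its F test from 7.02e-05 to 0.0805. Between sorts of normal liver, Csf1 ranged from -0.10 to 0.89 for HSC against Thy1, 0.59 to 1.59 for HSC against LSEC and -0.73 to 0.069 for EC against LSEC. Il34 ranged from -0.25 to 0.45 for KC against blood and -0.25 to 0.012 for EC against LSEC. Csf1r ranged from 2.84 to 2.96 for KC against blood, -4.42 to 0.98 for HSC against Thy1, -1.84 to 3.56 for HSC against LSEC, -1.60 to 0.020 for EC against LSEC and, after PH, 1.62 to 3.07 for EC against LSEC. Responses of HSC against Thy1 ranged from -0.30 to 0.70 for Csf1, -2.06 to 3.34 for Csf1r and -0.14 to 1.24 for Il34, of HSC against LSEC from -2.98 to 2.42 for Csf1r and -0.60 to 0.78 for Il34, and of cBEC against NPD from -0.65 to 0.48 for Il34.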
